A study of Mus musculus with 20 samples.

Results

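The comparison set the cocaine over saline ratios of adult occipital cortex against those of adult frontal cortex in mice. Its members were chosen by sample title and are 10 of the 20 arrays of the series, 5 from each adult region. The other 10 arrays come from fetal cortex and entered mainly through the shared estimate of spread. Timed pregnant Swiss Webster dams were injected under the skin with 20 mg/kg cocaine hydrochloride in saline, or with saline alone, 2 times a day on embryonic days 8 to 18. Control dams were pair-fed with cocaine dams. The offspring received no further drug that the labels name and were taken under pentobarbital anaesthesia on postnatal day 30, so both channels of every adult array stem from animals whose exposure had ended before birth. Frontal tissue lay anterior to the level of the striatum and occipital tissue posterior to the level of the hippocampus. Each array of a region used its own cocaine and saline litters. The labels give neither the number of adult animals per array nor their sex, nor do they say whether a frontal and an occipital array share animals. Exposed tissue was in channel 1 with one dye and control tissue in channel 2 with the other on all 10 arrays.

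Cocaine blocks the reuptake transporters for dopamine, noradrenaline and serotonin, and it crosses the placenta. Dopamine fibres from the ventral midbrain reach rodent frontal cortex densely and the occipital, mainly visual, cortex sparsely, and this unequal innervation is the reason the labels' authors treated the regions apart. A regional difference in the ratio asks whether a transcript was affected by the exposure more in one region than in the other. A difference in dye brightness that is the same on all arrays for a probe cancels in it, whereas the mean ratio of either region still carries that dye difference.

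Ratios are given on the log2 scale as cocaine over saline, relative to the median of each array, so that 1 unit is a 2-fold change. That direction is likely rather than stated: it follows from the order of the channels, and if the deposited ratios run the other way every sign below turns, the differences included. The files hold no intensities, so neither the depth behind a value nor the labelled tissue could be checked through the level of marker genes. Of 22575 probes, 22567 were tested. They cover 16504 gene symbols. The scaled median absolute deviation of an array's ratios was 1.34 ± 0.348 (SD, n = 5) in frontal cortex and 1.19 ± 0.183 in occipital cortex, and an exact permutation test detected no difference (two-sided p = 0.397, n = 5 per region, where 0.00794 is the smallest p possible).

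The 2 adult regions gave ratios that were largely alike, and no transcript passed the test for a regional difference. In frontal cortex 12664 probes differed from 0 at an adjusted p under 0.05 (56.1% of those tested; limma), 6040 higher (26.8%) and 6624 lower (29.4%). In occipital cortex 10882 did (48.2%), 5444 higher and 5438 lower (24.1% each). Higher in both were 4644 probes (20.6%) and lower in both 4916 (21.8%). Those 9560 probes were 75.5% of the frontal calls and 87.9% of the occipital calls. A single probe, for AY036118, was called in opposite directions (0.00443%). The difference between the regions passed for 0 of 22567 probes (0.0%), with a lowest adjusted p of 0.998. At an unadjusted p under 0.05 there were 611 (2.71%), fewer than the 5% that this threshold gives where no probe differs. Of these, 445 were higher in occipital cortex (1.97%) and 166 lower (0.736%). The count depended on the fit. It was 953 with the adult arrays alone and 1880 with robust regression, the latter above that 5%.

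Across probes the mean ratios of both regions correlated with a Pearson coefficient of 0.922 and a Spearman coefficient of 0.925. Probes are no independent replicates. The sign was the same in both regions for 88.8% of probes. The frontal means were spread more widely, with a standard deviation of 1.07 against 0.889, so that occipital ratios lay on average closer to 0. The median size of the difference was 0.297, and 75.8% of probes differed by less than 0.5. Over 1 unit lay 428 probes (1.9%). A fixed dye difference of a probe enters that agreement and cannot be told apart from a shared response, since no array has the dyes swapped. One quantity without that term is the change from the fetal to the adult ratio within each region. Across probes this change in frontal cortex correlated with the change in occipital cortex at 0.612, and at 0.542 with the trend over probe brightness removed. A brightness trend that differs between fetal and adult arrays can enter both changes. The fetal and adult arrays of the 2 regions do not overlap in samples.

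**Figure D1:**
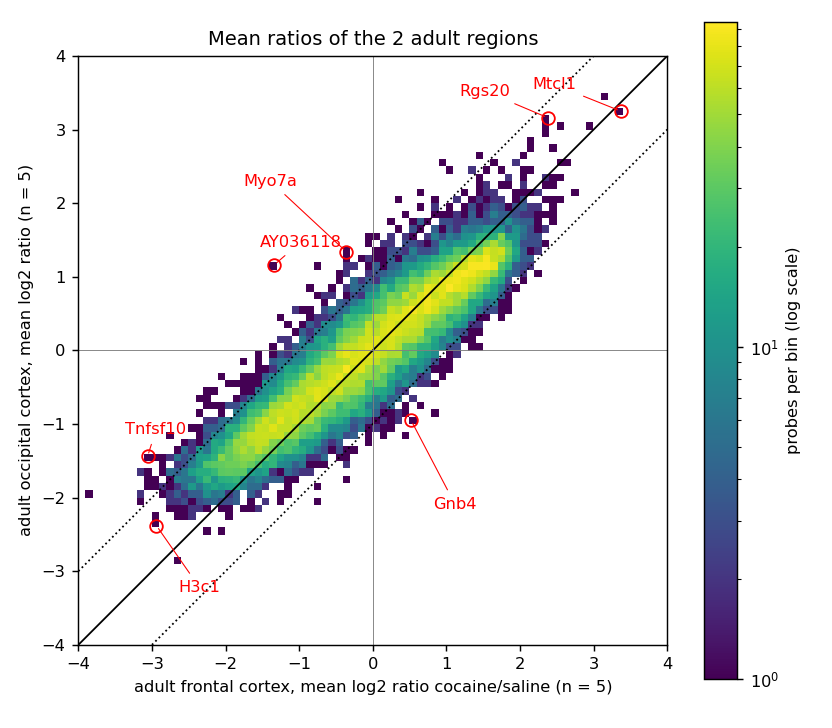
Mean log2 ratio of cocaine over saline of each probe in adult frontal cortex (horizontal axis) and adult occipital cortex (vertical axis), 5 arrays each, as the number of probes per square bin on a log colour scale. The solid line marks equal ratios and the dotted lines a difference of 1 log2 unit; most probes lie along the diagonal, 428 lie outside the dotted lines, and AY036118 is the single probe called in opposite directions.

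Single arrays showed the same picture. Pairs of frontal arrays correlated at 0.695 on average (0.541 to 0.856 over 10 pairs) and pairs of occipital arrays at 0.67 (0.556 to 0.768 over 10 pairs). Pairs made of 1 array from each region correlated at 0.689 (0.572 to 0.843 over 25 pairs). Frontal with occipital arrays were thus about as alike as arrays within a region. For 4 of the 10 arrays the closest array came from the other region, and frontal 2, frontal 4 and occipital 2 formed the tightest trio. The slope of an array on the mean of the other 9 was 1.06 ± 0.214 (SD, n = 5) in frontal cortex and 0.854 ± 0.131 in occipital cortex. These slopes overlapped between regions (exact permutation test, two-sided p = 0.135, and 0.262 after Benjamini-Hochberg adjustment over 3 array measures).

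**Figure D2:**
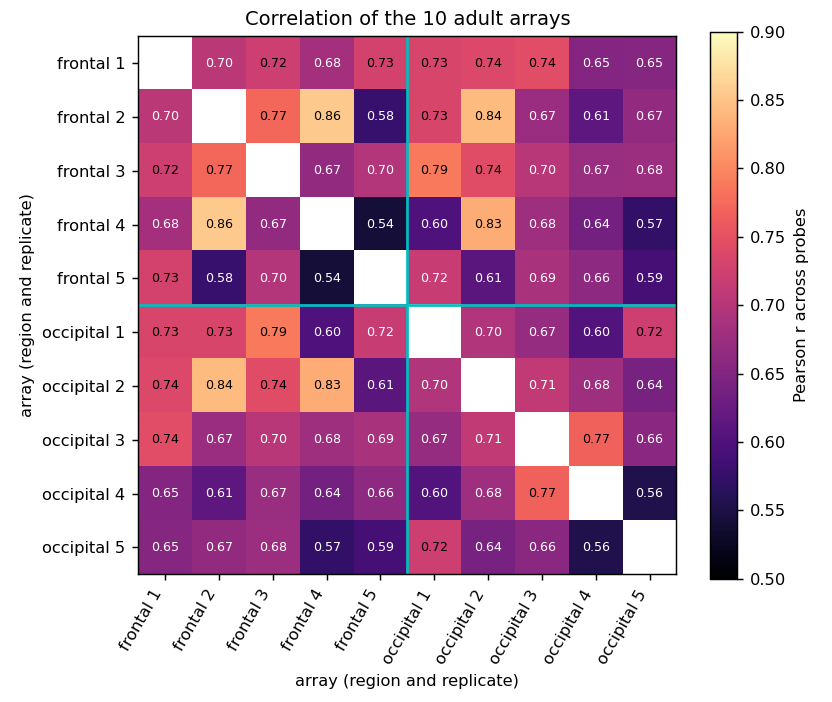
Pearson correlation across probes for each pair of the 10 adult arrays, labelled by region and replicate on both axes, with the cyan lines separating the regions. The frontal with occipital blocks (mean 0.689) are as bright as the frontal (0.695) and occipital (0.67) blocks, with the highest values between frontal 2, frontal 4 and occipital 2.

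Among the probes called in the same direction in both regions with one sign on all 10 arrays, which numbered 8111, the highest mean ratio belonged to Mtcl1, a microtubule crosslinking factor. Its probe read 4.29, 4.03, 3.34, 1.17 and 4.04 on the frontal arrays and 4.55, 2.26, 3.33, 2.26 and 3.88 on the occipital arrays. All 10 values were far above 0 and the regions covered the same range. The difference, always given here as occipital minus frontal, was -0.12 ± 0.73 (SE), with a 95% interval from -1.60 to 1.37. A further Mtcl1 probe gave lower ratios of 0.77 and 0.59 but a like difference of -0.18 ± 0.49. Rgs20, a regulator that speeds the shutdown of G protein signals, read 3.29, 2.02, 2.58, 1.02 and 2.99 in frontal cortex. Its occipital values were 4.32, 2.01, 4.10, 1.67 and 3.69. The arrays overlapped broadly, and the difference was 0.78 ± 0.63 (-0.50 to 2.06).

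The other 8 highest were Wbp2nl, Smyd3, Slc30a9, Adpgk, Lmbrd2, Slc5a6, Usp4 and Wdr37. Smyd3 encodes a lysine methyltransferase, Slc30a9 a zinc transporter family member, Adpgk an ADP-dependent glucokinase, Slc5a6 the sodium-dependent multivitamin transporter and Usp4 a ubiquitin protease. Their regional means ran from 2.19 to 3.41 with all 10 arrays above 0, with Slc5a6 the most even in frontal cortex at 2.33, 2.20, 2.17, 2.48 and 3.02. Its occipital arrays gave 2.60, 1.17, 3.94, 3.51 and 2.28, around a mean of 2.70 against 2.44. The differences of these 8 genes lay between -0.21 and 0.74, and all 8 intervals included 0. A further Wdr37 probe had means of -0.11 and -0.22.

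At the other end stood H3c1, a replication-dependent histone H3 gene. Its frontal arrays read -1.58, -3.34, -4.54, -3.33 and -1.89 and its occipital arrays -1.49, -2.74, -3.02, -2.66 and -1.98. Every array was low and the regions overlapped, with a difference of 0.56 ± 0.54 (-0.53 to 1.65). Abat, the enzyme that breaks down GABA, read -2.14, -4.0, -2.84, -3.03 and -2.23 in frontal and -1.58, -2.55, -2.12, -1.72 and -1.41 in occipital cortex. Frontal ratios were mostly the lower, and the difference of 0.97 ± 0.48 had an interval that just included 0 (-0.01 to 1.96). Nalcn, the sodium leak channel of neurons, was tightly grouped in occipital cortex at -2.15, -2.10, -2.23, -2.0 and -2.05. In frontal cortex it spread over -1.48, -3.0, -2.73, -1.98 and -4.27. Its difference was 0.59 ± 0.49, and a further Nalcn probe had positive ratios of 0.63 and 0.40, so the gene's probes disagreed in direction while both showed a small regional difference.

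Trim30a, an interferon-inducible ubiquitin ligase, belonged to the same group of low ratios but did not overlap between regions. It read -2.51, -4.11, -2.54, -3.10 and -3.55 in frontal and -2.23, -2.30, -1.37, -2.23 and -1.42 in occipital cortex. The difference was 1.25 ± 0.48 (0.27 to 2.22) and did not pass. Spc24, a kinetochore protein, differed by 1.30 ± 0.43 and Uba1y, a Y-linked ubiquitin-activating enzyme, by 1.47 ± 0.58, both with weaker ratios in occipital cortex and neither passing. The remaining low genes, Stra8, Card6, Epg5 and Triml1, had differences from 0.40 to 0.74 with intervals that included 0. A further Uba1y probe had positive ratios of 0.48 and 0.60. All 10 of these low genes had the less negative mean in occipital cortex, where ratios were the smaller over all probes too.

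The closest agreement at a sizeable ratio was described for 10 genes, picked for a mean ratio of at least 1.5 in size and the narrowest reach of the interval from 0. Ntm, the cell adhesion molecule neurotrimin, had the highest mean of them, with 1.92, 1.93, 2.28, 1.01 and 2.66 in frontal and 1.97, 1.43, 2.82, 1.98 and 1.46 in occipital cortex. Its interval ran from -0.82 to 0.76. Hoxd8, a homeobox gene of the trunk, read 1.69, 1.34, 1.87, 1.43 and 1.47 against 2.10, 1.13, 1.64, 1.69 and 1.08, with an interval from -0.80 to 0.74. Both genes were higher on all 10 arrays and their regions were mixed. Among low ratios, Has3, a hyaluronan synthase, read -1.66, -2.33, -1.27, -2.0 and -0.94 against -1.51, -2.01, -1.10, -1.69 and -1.82. Its interval ran from -0.75 to 0.78. Slc26a2, a sulfate transporter, had means of -1.75 and -1.69 and an interval from -0.71 to 0.83. Obi1, A930018P22Rik, Rnf112, Cabs1, Foxd2 and 1700003F12Rik completed the set. Even for these, chosen as the best matched, the interval left room for a difference of about 0.8 units either way. A further Obi1 probe gave ratios of -1.65 and -0.73, opposite in sign to the first.

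None of the probes described next passed the test of the regional difference; they are the 10 in each direction with the smallest p. AY036118 had the smallest p in the comparison. It read -0.48, -2.84, -0.08, -2.72 and -0.61 in frontal cortex and 0.87, -0.01, 2.52, 2.30 and 0.14 in occipital cortex. All 5 occipital arrays lay above the highest frontal one, although arrays of each region varied by more than 2 units. The difference was 2.51 ± 0.57 (1.33 to 3.68; limma, unadjusted p = 0.000131, adjusted p = 0.998). Its frontal mean of -1.34 and its occipital mean of 1.16 each passed against 0 (limma, adjusted p = 0.00601 and 0.0197). In fetal cortex the same difference was 0.75 ± 0.57.

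Tnfsf10, which encodes the death receptor ligand TRAIL, came second. The frontal arrays gave -3.29, -3.27, -2.22, -4.0 and -2.55, and the occipital arrays -0.88, -1.88, -1.44, -1.44 and -1.56. Both regions were low and they did not overlap. The difference was 1.62 ± 0.42 (0.77 to 2.48; limma, unadjusted p = 0.000532), and each region's mean passed against 0. Non-overlap between regions was seen for 77 probes with occipital cortex higher (0.341% of those tested) and for 90 with occipital cortex lower (0.399%).

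Dnah7b, an axonemal dynein heavy chain, had means of -2.0 and -0.38, and Cdc42ep2, an effector of the GTPase CDC42, of -2.23 and -0.74. Olfr1246, an odorant receptor, read -1.54, -1.71, -0.99, -1.28 and -2.38 against -0.61, 0.26, 0.16, -0.42 and -0.31. Its regions were separate, with occipital values near 0. For these 3 genes the frontal mean passed against 0 and the occipital mean did not, while the difference itself did not pass at 1.39 to 1.62. Taok1, a kinase of the MAP kinase cascade, and Myo7a, an unconventional myosin of sensory hair cells, were the reverse. Taok1 read 0.06, -0.12, 0.69, 0.21 and -0.40 in frontal and 1.45, 1.41, 2.83, 0.55 and 1.40 in occipital cortex, a difference of 1.44 ± 0.40. Occipital values were high on 4 arrays and overlapped the frontal range on occipital 4. The other Taok1 probes differed by 0.13 ± 0.39 and -0.39 ± 0.45, so the probes of the gene disagreed. Myo7a stood at 0.08 or less on all frontal arrays and at 1.78, 1.18, 3.44, -0.47 and 0.79 on the occipital arrays. Pibf1, Tmed11 and BC006965 completed the 10, with differences from 1.38 to 1.56.

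With the lower ratio in occipital cortex, Gnb4, a G protein beta subunit, had the smallest p. Its frontal arrays read -0.12, 1.45, 1.09, 0.23 and -0.03 and its occipital arrays -0.05, -1.06, -1.0, -0.77 and -1.85. The occipital values were below 0 throughout and 1 of them reached the frontal range. The difference was -1.47 ± 0.45 (-2.38 to -0.56; limma, unadjusted p = 0.00248). Apba1, also called Mint1, an adaptor of the synaptic vesicle machinery that binds the amyloid precursor protein, had the largest difference of this direction at -1.74 ± 0.56. It read -0.27, 1.59, 1.86, 0.90 and 0.19 against -1.72, 0.19, -0.92, -2.51 and 0.55, with overlap.

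Etv2, an ETS transcription factor of early blood vessel formation, read 1.55, 1.60, 2.50, 1.64 and 2.01 in frontal and 1.04, 0.55, -0.17, 0.93 and 0.75 in occipital cortex. Cetn3, a centrin of the centrosome, read 1.5, 1.41, 1.65, 1.27 and 0.77 against -0.56, 0.28, 0.52, -0.04 and 0.49. Both were separate between regions, with frontal means that passed against 0. Their differences were -1.24 ± 0.39 and -1.18 ± 0.40. Bnip1, a SNARE protein of the endoplasmic reticulum, was also separate, with means of 1.20 and 0.08. Pcdha6, 1 isoform of the clustered protocadherins whose members share sequence, differed by -1.06 ± 0.37, against -0.19 ± 0.37 at its further probe. Myo16, an unconventional myosin of neurons, differed by -1.29 ± 0.49 at the first probe and by 0.20 ± 0.38 at the further one. Nubp2, Fbxo9 and Cd24a had differences from -1.30 to -1.17.

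**Figure D3:**
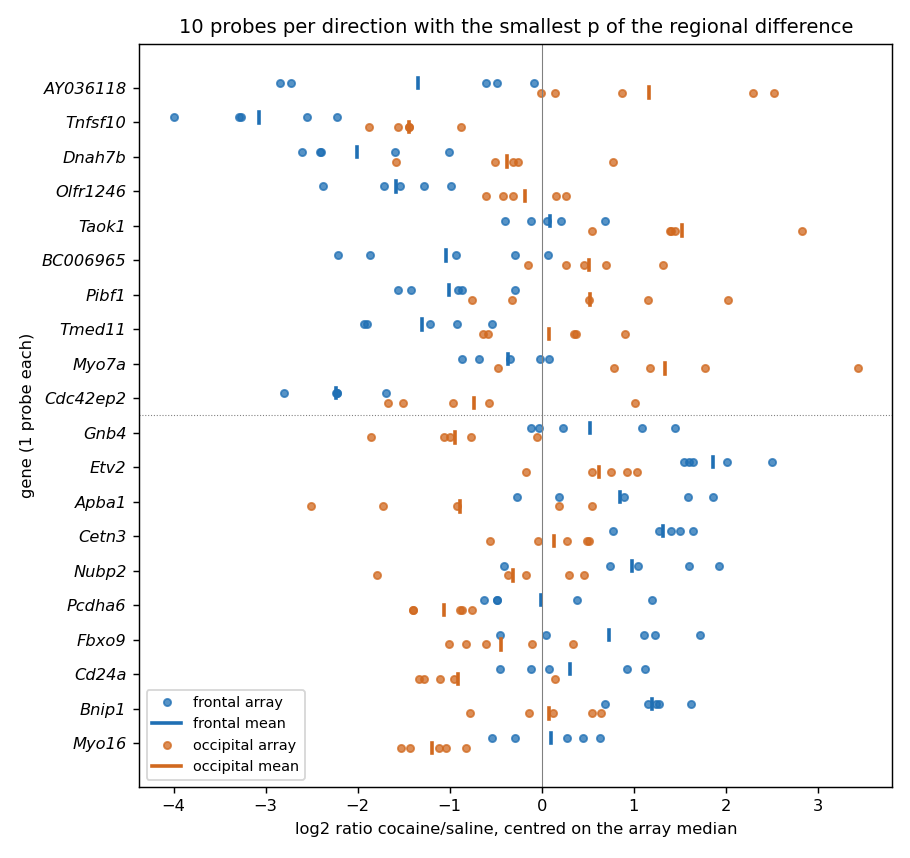
Log2 ratio of cocaine over saline on each of the 5 frontal (blue) and 5 occipital (orange) arrays for the 10 probes per direction with the smallest unadjusted p, with short bars at the region means. Genes above the dotted line had the higher mean in occipital cortex and those below it the lower; AY036118, Tnfsf10, Etv2 and Cetn3 are among those that do not overlap between regions, and no probe passed the adjusted test.

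Place on the array moved with these differences. If probes run in rows of 215, the spacing of probe numbers at which ratios correlated most (0.1695), the array has 105 rows. Spacings of 216 and 214 correlated almost as much (0.1692 and 0.1649), so row numbers are approximate. The median row of probes at an unadjusted p under 0.05 was 51 where occipital cortex was higher and 77 where it was lower. Of the 10 lower genes just named, all except Nubp2 (row 31) lay in rows 82 to 102. With a smooth trend over position and one over probe brightness taken out of each array, the differences of AY036118, Tnfsf10 and Gnb4 were 2.55, 1.16 and -1.57. That of Etv2 was -0.94 and that of Bnip1 -0.66. Signs stayed, the sizes mostly shrank, and none passed.

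The size of difference that the data leave possible was read from the interval of each probe. The 95% interval extended 0.901 units to either side of the estimate at the median probe, a factor of 1.87, and 0.669 units at the most precise probe. Counting the estimate too, the far end of the interval lay 1.22 units from 0 at the median probe, a factor of 2.33. It lay 1.69 units from 0 at the 90th percentile and 3.68 units from 0 at the most extreme probe, AY036118. Within 2-fold either way lay the whole interval of 4306 probes (19.1%), within 3-fold that of 19184 (85.0%) and within 4-fold that of 22013 (97.5%). Intervals that cover all probes jointly, by Bonferroni's rule, extended 2.55 units either way at the median probe, a factor of 5.87.

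An equivalence test, which sets a pair of one-sided limma tests against the bounds on both sides and adjusts over all probes, placed 20754 probes within 3-fold (92.0%) and 22308 within 4-fold (98.9%). Within 2-fold it placed 0 (0.0%), and within 1.5-fold also 0. At this error rate a regional difference of 3-fold or more was excluded for 92.0% of probes, whereas one of 2-fold was excluded for no probe. With brightness and position trends removed, the 2-fold count became 11610 (51.4%), and with robust regression 6492 (28.8%). With the 10 adult arrays fitted alone, the 95% interval stayed within 2-fold for 7078 probes (31.4%) and the equivalence test again placed 0. Leaving out any 1 array lowered the number with an interval within 2-fold to between 2211 (without occipital 2) and 2979 (without frontal 2), and the 3-fold equivalence count to between 18609 and 20518.

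**Figure D4:**
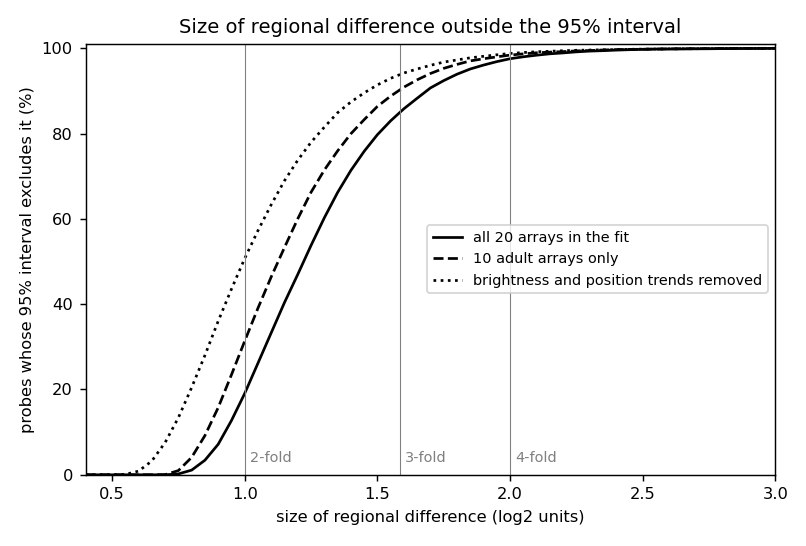
Percentage of probes (vertical axis) whose 95% interval of the occipital minus frontal difference lies wholly within a given size (horizontal axis, log2 units), for the fit of all 20 arrays, the fit of the 10 adult arrays and the fit after removal of brightness and position trends. In the fit of all arrays 19.1% of probes lie within 2-fold, 85.0% within 3-fold and 97.5% within 4-fold.

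Gene lists were drawn up for transmitter systems, cortical identity, cell types and housekeeping machinery. In all 33 lists 0 probes passed the regional difference, and the median differences lay between -0.268 (neuropeptides) and 0.383 (sex-linked transcripts), beside 0.0492 over all probes. For the dopamine system, with 24 probes for 22 genes, 10 probes were higher and 4 lower in frontal cortex, against 7 and 2 in occipital cortex. Of these, 7 were higher and 2 lower in both. Over all probes 26.8% were higher and 29.4% lower in frontal cortex, 24.1% each in occipital cortex, and 20.6% higher and 21.8% lower in both. The list's median ratio was 0.484 in frontal and 0.374 in occipital cortex, against -0.0362 and 0.0132 over all probes. With brightness and position trends removed these list medians were -0.0324 and 0.0275, beside -0.00865 and 0.0215 over all probes. In that setting 3 of the 24 probes were higher and 0 lower in both regions. Of all 22567 probes, 1257 were higher and 1614 lower in both. The list's medians thus did not stay apart from those of all probes, while its few calls in both regions were all higher.

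Slc18a2, the vesicular monoamine transporter that loads dopamine into vesicles, had the smallest p of that list. It read 1.56, 1.34, 2.18, 1.37 and 1.98 in frontal and 1.35, 0.77, 0.47, 1.06 and 0.34 in occipital cortex. The ratio was above 0 on every array, both region means passed against 0, and only occipital 1 reached the frontal range. The difference was -0.89 ± 0.42 (-1.74 to -0.04; limma, unadjusted p = 0.0418) and did not pass. With both trends removed it was -0.35. Of 126 probes named from the lists, the difference was smaller by over 1.5 times for 56 with both trends removed. Drd2, the D2 dopamine receptor, read -1.17, -1.99, -1.33, -1.14 and -0.94 against -1.08, -1.31, -0.33, 0.48 and -0.58. Its ratio was negative in frontal cortex and mixed in occipital cortex, with a difference of 0.75 ± 0.38 (-0.03 to 1.53). Gnal, the G protein alpha subunit that couples D1 receptors in striatum, differed by 0.72 ± 0.38 at one probe and -0.07 ± 0.71 at the other. Pde10a, a cyclic nucleotide phosphodiesterase abundant in striatum, differed by -0.70 ± 0.49. The farthest end of any interval in the dopamine list lay 2.09 units from 0.

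The noradrenaline and serotonin list (18 probes) had medians of -0.124 and -0.0414 (0.0496 and 0.127 with both trends removed), and all 18 intervals lay within 3-fold, beside 85.0% of all probes. Its smallest p belonged to the serotonin receptor gene Htr4, with a difference of 0.41 ± 0.43. Slc6a2, the noradrenaline transporter that cocaine blocks, read -0.52, -2.64, -1.47, -2.19 and 0.23 in frontal and -0.32, -1.51, -0.97, -1.33 and -0.80 in occipital cortex. The regions overlapped, with a difference of 0.33 ± 0.46 (-0.60 to 1.26). Glutamate genes (30 probes) had medians of 0.699 and 0.496, or 0.212 and 0.169 with both trends removed. There Grm5, a metabotropic receptor, differed by -0.85 ± 0.42, Slc1a3, the astrocyte glutamate transporter, by -0.91 ± 0.48, and Glul, glutamine synthetase, by -0.56 ± 0.34. Glul was almost the same on the frontal arrays at 0.99, 1.10, 1.07, 1.10 and 1.10, and scattered on the occipital arrays at 0.98, 0.79, -0.09, 0.65 and 0.20. The GABA list (22 probes) had medians of 0.543 and 0.382 (0.141 and 0.191 with both trends removed), with 8 probes higher and 2 lower in both regions, where 20.6% and 21.8% of all probes were. With both trends removed 1 was higher and 2 lower in both, beside 1257 and 1614 of all 22567 probes.

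Immediate early genes, which neurons switch on within minutes of activity, had medians of 0.153 in frontal and -0.0839 in occipital cortex over 36 probes, or 0.243 and 0.0075 with both trends removed. At an unadjusted p under 0.05, 3 of the 36 had the lower ratio in occipital cortex and 0 the higher, where 0.736% and 1.97% of all probes did. Nptx2, a secreted pentraxin that clusters AMPA receptors, read 0.66, 1.33, 1.35, 1.65 and 0.61 against 0.43, -0.07, 0.38, 0.17 and -0.04. Its regions were separate, and the difference was -0.95 ± 0.41 (-1.77 to -0.12; limma, unadjusted p = 0.0263). Dusp6, a phosphatase that switches off ERK, read 1.72, 1.63, 1.47, 1.01 and 1.35 against 0.62, 1.11, 1.09, 0.02 and 0.24, a difference of -0.82 ± 0.37. Occipital 2 and 3 reached into the frontal range. Fos differed by -0.96 ± 0.46 at one probe and by 0.66 ± 0.47 at the other, so its probes disagreed in direction. With both trends removed the Nptx2 and Dusp6 differences were -0.56 and -0.35.

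Of the genes that mark cortical areas and layers, some of which help set up frontal and visual fields in development, 0 passed the regional difference. The 95% interval lay within 2-fold for 6 of 28 area probes and 4 of 18 layer probes, beside 19.1% of all probes. The area patterning list (28 probes) had medians of 0.121 and 0.0479 (-0.0625 and -0.069 with both trends removed) and a median difference of -0.0163. Lmo4, a LIM-domain regulator enriched in rostral cortex, read 1.12, 1.22, 1.80, 1.39 and 0.71 against 1.24, 1.16, 0.67, -1.02 and 0.33. Occipital 4 alone was negative, and the difference was -0.77 ± 0.42. Epha3, an ephrin receptor, differed by 0.75 ± 0.41, Etv1, an ETS factor of layer V neurons, by 0.61 ± 0.40, and Lmo3 by -0.66 ± 0.45. In the layer marker list (18 probes) the smallest p belonged to Pou3f3, a transcription factor of upper layers, at -0.78 ± 0.49.

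Perineuronal net and plasticity genes had 7 of 13 probes higher and 0 lower in each region, 6 of them higher in both. Of all probes 26.8% were higher in frontal cortex, 24.1% in occipital cortex and 20.6% in both. With both trends removed 1 of the 13 was higher and 0 lower in both, beside 1257 and 1614 of all 22567 probes. Ncan, the proteoglycan neurocan, had means of 0.78 and -0.23 and a difference of -1.01 ± 0.63, while Hapln1, the link protein that anchors such proteoglycans, had means of 0.08 and 0.78 and a difference of 0.69 ± 0.45. Neither passed, and their signs were opposite. Neuropeptides and opioid receptors (18 probes) had medians of 0.657 and 0.333 (0.186 and -0.082 with both trends removed) and the lowest median difference of any list at -0.268. Oprm1, the mu opioid receptor, read 1.96, 1.5, 1.04, 0.97 and 2.12 against 0.80, 0.95, 0.90, 1.51 and -0.48, a difference of -0.78 ± 0.43, or -0.30 with both trends removed. Cck, a peptide of interneurons and pyramidal cells, differed by -0.75 ± 0.47 and Adcyap1, the peptide PACAP, by -0.97 ± 0.54. All intervals of these 3 genes included 0.

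The potassium channel list held 86 probes for 73 genes and had a median difference of -0.0104. At an unadjusted p under 0.05, 4 were higher and 1 lower in occipital cortex, where 1.97% and 0.736% of all probes were. Kcne4, an inhibitory accessory subunit, read 0.27, -0.36, -2.08, -1.13 and -0.05 against 1.56, -0.13, 0.99, 0.56 and 0.72. Its frontal mean was negative and its occipital mean positive, neither passing against 0, and the difference was 1.41 ± 0.46 (0.46 to 2.35). Kcnh1, a voltage-gated channel of the ether-a-go-go family, differed by -0.91 ± 0.38. In the circadian list the core activator Clock read -0.04, 0.18, -0.43, 0.62 and 0.12 in frontal and -0.15, 0.72, 1.94, 2.03 and 0.71 in occipital cortex. Its occipital mean passed against 0, and the difference of 0.96 ± 0.40 did not.

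The median ratios of abundant housekeeping genes were above 0 in both regions, and those of ribosomal proteins were close to 0 once brightness and position trends were removed. The counts that follow stand beside 26.8% of all probes higher in frontal cortex, 24.1% in occipital cortex and 20.6% in both. Those with both trends removed stand beside 1257 of all 22567 probes higher and 1614 lower in both. Of 74 probes for cytosolic ribosomal proteins 58 were higher in frontal and 50 in occipital cortex, 50 of them in both, with medians of 1.20 and 1.00. With brightness and position trends removed the medians were -0.00778 and 0.018, and 1 of the 74 was higher and 1 lower in both regions. Rpl5, of the large subunit, read 1.92, 1.84, 1.07, 1.59 and 0.52 against -1.16, 0.38, 1.08, 0.47 and 0.50, a difference of -1.14 ± 0.44. Rpsa, of the small subunit, read 2.17, 1.65, 1.64, 1.79 and 1.71 against 1.23, 1.02, 0.47, 1.06 and 0.91. Its regions were separate and both means passed against 0, with a difference of -0.85 ± 0.40 (-1.67 to -0.03). Respiratory chain genes (81 probes) had medians of 1.02 and 0.956 with 47 higher in both regions (8 with both trends removed), and proteasome genes (39 probes) medians of 1.01 and 0.804 with 20 higher in both (2 with both trends removed). Within the respiratory list, Atp5o, an ATP synthase subunit, differed by 1.03 ± 0.48 and Ndufb9, a complex I subunit, by -0.96 ± 0.46. Synaptic vesicle genes (32 probes) had medians of 1.07 and 1.06, and 21 were higher in both regions. With both trends removed they had medians of 0.285 and 0.283, with 3 higher and 2 lower in both. Syp, the vesicle protein synaptophysin, differed by -0.67 ± 0.53 and Syt1, the calcium sensor of release, by -0.59 ± 0.44.

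**Figure D5:**
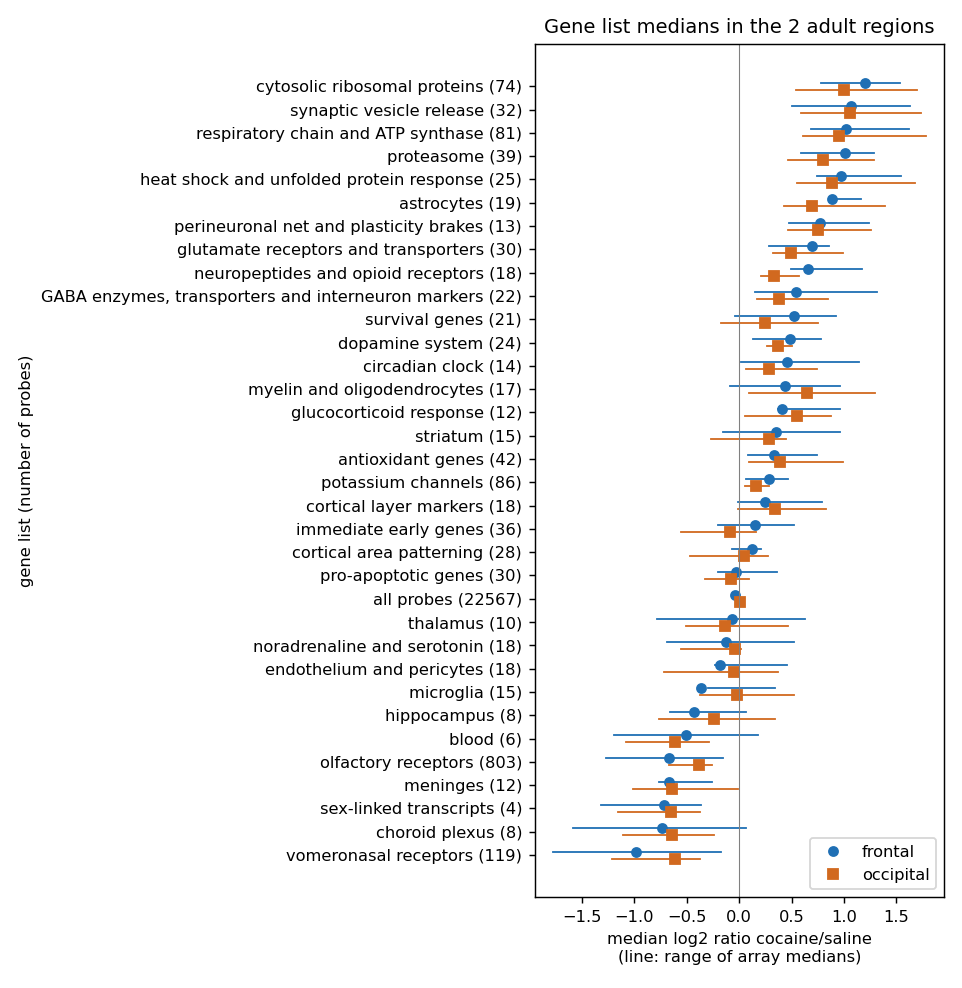
Median log2 ratio of cocaine over saline of each gene list in adult frontal (blue circles) and adult occipital cortex (orange squares), with lines from the lowest to the highest median of the 5 single arrays of a region and the number of probes in brackets. A marker is the median of region means and can lie outside its line; lists are ordered by the frontal median, from ribosomal proteins (1.20, and 1.00 in occipital cortex) to vomeronasal receptors (-0.98 and -0.612). In occipital cortex synaptic vesicle genes were highest (1.06) and sex-linked transcripts lowest (-0.652), and the regions' lines overlap for every list. With brightness and position trends removed the ribosomal medians were -0.00778 and 0.018.

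Among cell death genes 0 passed the regional difference. The pro-apoptotic list (30 probes), which holds Tnfsf10, had differences from -0.833 to 1.62 with a median of 0.0026 (-0.08 with both trends removed). Of its 30 intervals 10 lay within 2-fold, beside 19.1% of all probes. Bbc3, the BH3-only protein PUMA, read 1.28, 1.28, 1.80, 1.22 and 1.85 against 0.79, 0.93, 0.84, 0.55 and 0.34. Its regions were separate, and the difference was -0.79 ± 0.44 (-1.69 to 0.10). Fasl, a further death receptor ligand, differed by 0.66 ± 0.36. Among survival genes (21 probes, median difference -0.227, or -0.0533 with both trends removed) 0 intervals lay within 2-fold, beside the same 19.1%. There Bdnf, a growth factor of cortical neurons, differed by -0.68 ± 0.49, and its receptor gene Ntrk2 by 0.62 ± 0.38 and -0.11 ± 0.50 at different probes.

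Markers of glia and of tissue next to cortex were set beside these results, because a dissection can take in neighbours. Astrocyte genes (19 probes) had medians of 0.888 and 0.696, with 9 higher in both regions beside 20.6% of all probes. After removal of both trends the medians were 0.712 and 0.494, with 6 higher in both, beside 1257 of all 22567 probes. In the main fit the astrocyte gene Slc4a4, a bicarbonate transporter, differed by -0.82 ± 0.38 at one probe and 0.16 ± 0.36 at the other. Myelin genes (17 probes) had medians of 0.442 and 0.644 (0.336 and 0.323 after that removal). Mobp, a myelin protein, read 1.71, 1.85, 1.65, 2.50 and 2.22 against 1.82, 0.82, 1.68, 2.19 and 0.02, and only occipital 2 and 5 lay below the frontal range. In bulk tissue, fewer cells of a type and less RNA per cell cannot be told apart. Microglial genes (15 probes) had medians of -0.365 and -0.024 (0.00318 and 0.164 after that removal), with Tyrobp, a signalling adaptor, at -0.74 ± 0.43. Median differences were -0.17 for striatum (15 probes), 0.13 for hippocampus (8), -0.0564 for thalamus (10), 0.235 for choroid plexus (8), -0.0444 for meninges (12) and -0.0911 for endothelium and pericytes (18). All were small beside the spread of single arrays, and their part in the results was not tested.

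Across probes, which are no independent replicates, the regional difference followed probe brightness. A brightness score, built from the ratios themselves because dim spots give quotients of small whole numbers, had a Spearman coefficient of -0.438 with the difference across probes. The dimmest 10% of probes by this score had median ratios of -1.30 in frontal and -0.979 in occipital cortex, and the brightest 10% had 1.47 and 1.17. The difference thus had a median of 0.338 among dim and -0.285 among bright probes. Scaling all arrays to an equal spread brought the coefficient to -0.29, and removing both trends brought it to 0.00714. Olfactory receptors (803 probes), odorant receptors of the nose, had medians of -0.664 and -0.381 and a median difference of 0.23, which was 0.164 after removal of both trends. With the brightness trend removed the regional means correlated at 0.82, and 2258 probes were called alike in both regions in place of 9560. On single arrays, the Spearman coefficient of ratio with brightness score was 0.681 ± 0.0248 (SD, n = 5) in frontal and 0.638 ± 0.0587 in occipital cortex. An exact permutation test detected no difference between regions (two-sided p = 0.175, and 0.262 after Benjamini-Hochberg adjustment over 3 array measures). How much of the smaller occipital ratios belongs to brightness was not tested further.

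The fetal arrays gave the same contrast before birth. Of the 5 fetal occipital arrays 2 share a title number, and they were counted as separate arrays in the fetal contrast and in the shared spread. The fit of the 10 adult arrays, which holds no fetal array, also called 0 regional differences. In the fetal contrast, fetal occipital minus fetal frontal, 5 probes passed (0.0222%) and 3504 had an unadjusted p under 0.05 (15.5%; limma). Whether the adult difference departs from the fetal one was tested directly, and 0 of 22567 probes passed (0.0%), with 897 at an unadjusted p under 0.05 (3.97%). Across probes the adult and the fetal difference, which share no arrays, correlated at 0.371. This became 0.267 with equal spread and 0.161 with both trends removed. The adult minus the fetal difference was 2.19 for Myo7a, 2.34 for Usp4, 2.35 for Rgs20 and -1.53 for Etv2. In limma these had an unadjusted p of 0.00525, 0.00296, 0.0122 and 0.00892, and they did not pass after adjustment. Myo7a and Etv2 were named for their adult difference, which is a term of this contrast, so their p is no independent test. Usp4 and Rgs20 were named for their shared ratio and singled out here from that group, so their p is not free of selection either.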

How the data were processed

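Each array compared cocaine-exposed with saline-exposed cortex of separate litters, with 5 µg of RNA per channel. The deposited values are log2 ratios, per the labels a 2-colour comparison; how the authors corrected background and normalized is not given in the sources read here. Among 565 ratios of 82 dim spots, 97.2% were quotients of whole numbers up to 20 within 0.001 on the log2 scale after 1 offset per array, which fixed the base. From 6 to 27 values per adult array equal to the array maximum were set to missing, and exact 0 values were kept. The median of each array was subtracted, and a probe needed 3 or more values in each group. One limma model (limma 3.58.1, R 4.3.3) of 4 group means was fitted to all 20 arrays. Contrasts were two-sided and adjusted over all probes by Benjamini-Hochberg, with 0.05 as the threshold. SE and intervals come from that model, and array measures were compared by exact permutation (scipy 1.17.1). The fit was tested on simulated data whose noise was drawn independently for each probe and array. That noise held no trend over brightness or position, so the test cannot show how the fit handles such trends. P-values measure the spread between litters' arrays.

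Probes were named from the platform annotation: 18218 have 1 symbol, 16 several and 4341 none; RefSeq (GRCm38.p6) changed 0 symbols. The members, gene lists and naming rule were chosen with earlier results of these data known. The rule took 10 genes per direction with the smallest p of the difference, 10 per direction with the largest mean among probes called in both regions with one sign on all 10 arrays, probes called in opposite directions, 5 per direction with the closest agreement, and up to 4 members per list. Loess spans were 0.3 for brightness and 0.05 for position. Title numbers are shared by both regions, and the labels do not say whether they pair the arrays. Deviations of same-numbered arrays correlated at -0.0095, 0.38, -0.082, 0.05 and 0.078. Such correlations cannot show whether arrays share animals or litters, and the main fit treated the arrays as unpaired. Other settings tried were no centring, equal spread, quantile normalization, other filters, 0 as missing, maxima kept, array weights, robust regression, adult arrays alone, a replicate block, 1 mean value per gene and leaving out each array.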

Additional observations from a re-analysis of the deposited data

Results flagged for a closer look

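In 9 of 296 groups of 5 values, 1 array stood apart from the other 4 by more than Dixon's limit, where chance flags about 1 in 20 groups. Occipital 1 was apart most often. It read 0.14 for Cd24a, where the other occipital arrays lay between -1.33 and -0.95, and -0.63 for Epha3, where they lay between 0.38 and 0.68. Its median was -0.26 for the striatum list (others 0.26 to 0.45), 1.78 for the respiratory chain list (others 0.61 to 0.95) and 1.29 for the proteasome list (others 0.47 to 0.67). Occipital 4 had a median of -0.47 for the cortical area patterning list, against 0.06 to 0.28. Occipital 5 had a slope of 0.63 on the mean of the other arrays, against 0.88 to 0.97. In frontal cortex, array 4 read -2.28 for the endothelial receptor gene Flt1 (others 0.06 to 0.43), and array 1 read 4.22 for Slc30a9 (others 1.68 to 2.09).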

How the results depend on the processing

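No regional difference passed under any of the 25 other settings or at an adjusted p threshold of 0.1: the count was 0 in each, 0 to 0 when single arrays were left out, and 0 with a replicate block on the title numbers, where 1342 probes had an unadjusted p under 0.05 and 11068 were called alike in both regions. Unadjusted counts moved from 611 to 953 with adult arrays alone, 1060 with array weights, 1880 with robust regression and 197 with equal spread, and without frontal 1, frontal 2, frontal 5 or occipital 3 to 933, 387, 1073 or 382. Probes placed within 1 log2 unit by the equivalence test numbered 0, but 11610 with both trends removed and 6492 with robust regression; at the 3-fold bound they were 20754. Probes called alike in both regions numbered 2871 with both trends removed and 2258 with the brightness trend removed, and 7558 to 9266 without single arrays. The correlation of regional means was 0.828 and 0.82 under those settings and 0.892 to 0.924 without single arrays. The cause of these changes was not tested. The check of named differences took in only part of the named genes, and Fos, Bbc3, Rpsa, Glul and Syp were among those left out. Of its 1968 values under other settings, 0 passed and 0 turned in sign. Of 719 for the shared genes, 709 still passed; Smyd3, Lmbrd2, A930018P22Rik and Rnf112 did not with the brightness trend or both trends removed, Slc30a9 with the former and Ntm with the latter. Of 792 values of the lists' median differences 0 moved by over 1 SD, a limit that does not register a change of sign. With both trends removed that of the GABA list went from -0.169 to 0.00643 and that of the ribosomal list from -0.163 to 0.047. The neuropeptide list went from -0.268 to -0.125. The ribosomal medians within each region went from 1.20 and 1.00 to -0.00778 and 0.018 with both trends removed. Without intensities, signal over background could not be given.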

Other observations

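Heat shock and unfolded protein genes (25 probes) had medians of 0.973 in frontal and 0.888 in occipital cortex (0.236 and 0.229 with brightness and position trends removed), with 14 higher and 1 lower in both regions, where 20.6% and 21.8% of all probes were. With both trends removed 1 was higher and 0 lower in both, beside 1257 and 1614 of all 22567 probes. Atf6, a sensor of misfolded protein in the endoplasmic reticulum, was higher on every array at 2.12, 1.68, 2.15, 1.5 and 2.06 against 1.33, 1.08, 1.5, 1.05 and 1.04, a difference of -0.70 ± 0.38. In the antioxidant list (42 probes) the median difference was 0.0251. Txn1, thioredoxin, differed by -0.99 ± 0.54. The 11 probes for Sod1, superoxide dismutase 1, all had a difference above 0, from 0.01 to 0.70. Glucocorticoid response genes (12 probes, medians of 0.407 and 0.548) had 4 higher and 0 lower in both regions, beside 20.6% and 21.8% of all probes. With both trends removed 3 of them were higher and 0 lower in both. Mt1, a metallothionein, read 1.74, 1.27, 2.44, 1.16 and 1.91 against 2.25, 1.24, 0.48, 1.14 and 0.04.

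Sex-linked transcripts bear on the make-up of the litters, whose sex the labels do not give. Xist, the RNA that coats the inactive X chromosome, read -0.39, -2.86, -2.69, -2.09 and -0.86 in frontal and -1.24, -1.92, -1.08, -1.07 and -0.70 in occipital cortex. Uty, on the Y chromosome, read -0.03, -0.80, 0.23, 0.39 and 0.46 against -0.02, 0.18, 1.75, 3.44 and -0.63. Neither differed between regions by more than the spread of its arrays, at 0.58 ± 0.55 and 0.89 ± 0.53. Kdm5d and Eif2s3y, also Y-linked, differed by 0.19 ± 0.60 and -0.06 ± 0.59. Blood genes (6 probes) had medians of -0.51 and -0.609, or -0.148 and 0.095 with both trends removed.

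Vomeronasal receptors (119 probes), pheromone receptors that cortex is not known to use, had the lowest frontal median of the lists, -0.98, against -0.612 in occipital cortex (-0.273 and -0.113 with brightness and position trends removed). Of these, 54 probes were lower and 8 higher in both regions, where 21.8% and 20.6% of all probes were. With both trends removed 15 were lower and 2 higher in both, beside 1614 and 1257 of all 22567 probes. Vmn2r42 read -1.12, -2.94, -2.61, -3.27 and -2.40 against -0.98, -1.75, -0.94, -1.23 and -1.13, a difference of 1.26 ± 0.50 that did not pass. The list's median brightness score stood at the 30.3rd percentile of all probes.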
